A study of Mus musculus with 9 samples.

Results

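The genes described here are the SR proteins and heterogeneous nuclear ribonucleoproteins (hnRNPs) of the mouse, with the main tissue-regulated splicing factors of the PTB, TRA2, MBNL, CELF, QKI and RBM3 families. They were chosen by gene symbol alone: every *Srsf* gene with a number, every *Hnrnp* gene other than *Hnrnpd*, and 11 named regulators, *Ptbp1*, *Ptbp2*, *Ptbp3*, *Tra2a*, *Tra2b*, *Mbnl1*, *Mbnl2*, *Mbnl3*, *Celf1*, *Qk* and *Rbm3*. This rule found 41 of the 52459 genes in the files (11 SR proteins, 19 hnRNPs and the 11 others), with 351 of the 131100 annotated transcripts. RNA-Seq was performed on total RNA of NMuMG cells, an immortalized mouse mammary gland epithelial line grown in serum. All cells carried a pBICEP expression vector and were kept under G418 selection as pools of stable transfectants. There were 3 libraries each of mock cells with the empty vector (203, 204 and 205), of EPR cells overexpressing the lncRNA BC030870 (EPR; 206, 207 and 208) and of EPRSTOPE cells overexpressing a point mutant whose second codon of the small open reading frame is a STOP, so that no peptide is made (209, 210 and 211). EPR against mock asks what the lncRNA with its peptide changes, EPRSTOPE against mock what the RNA changes without it, and EPR against EPRSTOPE where both overexpressing populations differ. The study's methods call the libraries of a condition biological triplicates but do not say whether they came from separate transfections, so p-values measure the spread between these libraries, which may be technical.

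SR proteins bind exonic enhancers through their RNA recognition motifs and recruit spliceosome components through domains rich in arginine and serine, which mostly favours inclusion of an exon. Many hnRNPs bind exonic or intronic silencers and oppose inclusion, although the outcome for both families depends on where they bind. Members of both families commonly limit their own level by splicing a conserved exon that carries a premature stop codon, often called a poison exon, into their transcripts, which are then degraded by nonsense-mediated decay (NMD). The PTB, MBNL and QKI proteins are better known for programmes that differ between tissues, and several of them change in epithelial-mesenchymal transition.

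Of the members' transcripts, 38 in 22 genes carry the NMD label of Gencode, and in all 38 the stop codon lies more than 50 bases before the last exon junction. In 13 of them the stop sits in an exon that overlaps no exon of a coding transcript of the gene. Of those 13, the 6 with a mean of at least 50 estimated counts are shown first, since such exons are the ones by which these genes are thought to limit their own level. *Srsf6* follows as an SR protein whose NMD transcript holds a large share of the gene's counts, and *Ptbp1* and *Ptbp2* because the paralogs share a stop. Other members are not shown, among them *Hnrnpu*, whose median share was larger (59.6%, against 49.1% for *Srsf6*). Each window of 30 bases runs 5′ to 3′ on the transcript's strand, with the premature stop codon in capitals, and was read from the transcripts of Gencode M21 on GRCm38. Srsf3-201 and Tra2b-206 carry another version number there than in the deposited files.
Srsf3-201: ctcaccaccctcTGAatctgcattagccag
Tra2a-202: agattggtcagaTAGaagcacttgaatatt
Tra2b-206: ctcaggaataagTGAagctgaaatttgaaa
Hnrnpl-213: ctaactcactgtTGAagcgtccaatggtga
Hnrnpll-203: agaagcccacttTGAaaatgtgttgctgtt
Rbm3-208: actggtcctgcaTGAggcggagaagccacc
Srsf6-201: gccttttgccatTAGacgcagggtgatggt
Ptbp1-201: atgtgcagcgggTGAagatcctgttcaata
Ptbp2-208: atgtgcagcgcgTGAagattctgtacaata

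The stop of *Srsf3* lies in a 456-base exon, chr17:29039454-29039909 on the plus strand, and that of *Srsf6* in a 268-base exon, chr2:162932815-162933082 on the plus strand, which another transcript labelled coding also holds outside its reading frame. *Tra2a* carries its stop in a 306-base exon (chr6:49252803-49253108, minus strand) and *Tra2b* in a 276-base exon (chr16:22258986-22259261, minus strand). The exons of *Hnrnpl* (70 bases, chr7:28817335-28817404, plus strand) and *Hnrnpll* (83 bases, chr17:80044940-80045022, minus strand) are shorter, and that of *Rbm3* spans 271 bases (chrX:8144175-8144445, minus strand). In *Ptbp1* (chr10:79862449-79862541, plus strand) and *Ptbp2* (chr3:119724094-119724186, minus strand) the stop falls inside a 93-base coding exon read in another frame, and 27 of the 30 bases around it are the same in both paralogs.

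In the libraries, of 5972457 to 11876435 estimated counts, BC030870 was at 0 to 0.163 CPM (counts scaled to a common library size) in mock, 23.7 to 27 in EPR and 3.8 to 4.74 in EPRSTOPE. The fragment length, read as transcript length minus kallisto's effective length, was 410.8 to 472.9 bases in mock, 180.1 to 281.7 in EPR and 115.0 to 386.0 in EPRSTOPE. Of 9 luminal epithelial markers, 6 (*Cdh1*, *Epcam*, *Cldn3*, *Cldn4*, *Cldn7* and *Ocln*) were under 1 TPM (transcript abundance corrected for length, scaled to the same total in each library) in every mock library, *Cldn3*, *Cldn4* and *Cldn7* also in every EPR and EPRSTOPE library and *Epcam* in every EPRSTOPE library. Several defining markers of the labelled cell type were thus absent or near 0, most of them in mock. The keratins *Krt8* (1989 to 2232 CPM), *Krt18* (1440 to 1638 CPM) and *Krt19* (261 to 293 CPM) were abundant in mock, and the summed level of all 9 markers was 2310 to 2898 TPM in mock, 5186 to 6426 in EPR and 5691 to 7704 in EPRSTOPE. The summed level of 14 proliferation genes was 1682 to 1928 TPM in mock, 786 to 842 in EPR and 855 to 984 in EPRSTOPE. These sums hide differences between the overexpressing populations. Of the 14, 6 were called higher in EPR than in EPRSTOPE (6.86% of all genes) and 7 lower (6.35% of all genes). The summed level of 6 basal markers was 5.62 to 7.12 TPM in mock, 0.668 to 0.828 in EPR and 1.32 to 2.55 in EPRSTOPE. Over all libraries that of 8 fibroblast markers was 0.484 to 1.9 TPM, with *Pdgfra* at 0 in mock and called higher in both populations, that of 3 endothelial markers 4.63 to 8.14 TPM, with *Cdh5* and *Kdr* under 1, and that of 3 leukocyte markers 1.52 to 3.81 TPM, with *Ptprc* and *Adgre1* under 1.

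Levels between members are given on the TPM scale, which divides counts by transcript length. *Hnrnpk*, a poly(C)-binding protein, had the highest mean over the 9 libraries, at 1240 TPM. *Hnrnpf* (442 TPM), *Hnrnph1* (437 TPM), *Hnrnpu* (363 TPM) and *Hnrnpa2b1* (328 TPM) followed by that mean. In every EPR library *Hnrnph1* (398 to 405 TPM) stood above *Hnrnpf* (325 to 347 TPM), and the order of these neighbours also differed between other libraries. The highest SR protein was *Srsf1*, an activator of exon inclusion, at a mean of 288 TPM, and *Ptbp1*, the general repressor of the PTB family, stood at 307 TPM. Lowest among the genes that passed the filter of at least 1 CPM in at least 3 libraries was *Mbnl3* at a mean of 2.69 TPM. *Srsf12* alone failed that filter, with 0 to 5 estimated counts per library. Because short transcripts gain TPM when fragments are long, and fragment length differed between conditions, TPM is used here for levels between genes and CPM, normalised by edgeR's TMM factors, for the comparison of conditions. The marker sums above are in TPM, so their differences between conditions carry this limit.

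**Figure D1:**
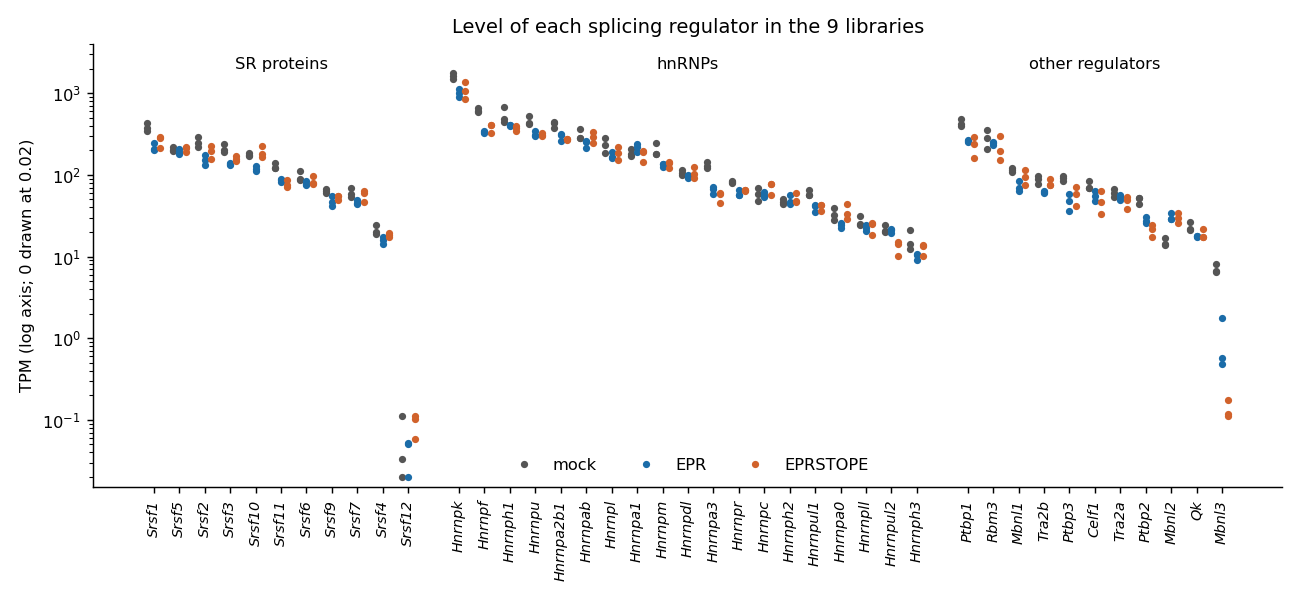
TPM of each of the 41 members (log axis, a value of 0 drawn at 0.02), with 3 points per condition for the 3 libraries. The hnRNPs reach from a mean of 12.8 TPM for *Hnrnph3* to 1240 for *Hnrnpk*, while *Srsf12* stays near 0 and *Mbnl3* separates by condition.

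Among the 5 most abundant members, *Hnrnpu*, a scaffold protein that binds RNA and chromatin, was at 990, 987 and 930 CPM in mock, 804, 808 and 824 CPM in EPR and 829, 778 and 786 CPM in EPRSTOPE. *Hnrnpk* was at 819, 859 and 833 CPM in mock, 703, 729 and 713 CPM in EPR and 823, 744 and 778 CPM in EPRSTOPE. For both genes every EPR library lay below every mock library, and for *Hnrnpu* every EPRSTOPE library did too. *Hnrnpa2b1*, whose proteins hnRNP A2 and B1 repress exons and sort RNAs, stood at 543, 550 and 513 CPM in mock, 403, 445 and 459 CPM in EPR and 417, 390 and 361 CPM in EPRSTOPE. *Hnrnph1*, which binds runs of G, was at 380, 395 and 393 CPM in mock, 408, 423 and 438 CPM in EPR and 380, 331 and 337 CPM in EPRSTOPE. *Hnrnph1* thus had its highest values in EPR, and 85.2% to 95.7% of its estimated counts fell in transcripts annotated as processed transcripts rather than as coding ones.

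Each gene was tested in edgeR's quasi-likelihood model over all 15370 genes that passed the filter, and called changed at a Benjamini-Hochberg adjusted p under 0.01 with a log2 fold change beyond 0.5. In EPR against mock 1 of 40 members was called higher (*Mbnl2*), against 15.2% of all genes, and 3 were called lower (*Hnrnpa0*, *Hnrnpf* and *Mbnl3*), against 12.9% of all genes. In EPRSTOPE against mock 1 was called higher (*Mbnl2* again), against 15.6%, and 4 lower (*Hnrnpa3*, *Hnrnpul2*, *Mbnl3* and *Ptbp2*), against 12.4%. Without mock library 205 the 4 became 7, and the share of all genes called in that fit was not taken. Between the overexpressing populations, EPR was higher for 2 members (*Hnrnpul2* and *Mbnl3*; 6.86% of all genes) and lower for 2 (*Hnrnpa0* and *Srsf10*; 6.35% of all genes). The last count was 1 without EPR library 206, 207 or 208 and without EPRSTOPE library 209 or 210. The shares of members called, 2.5% and 7.5% in the first comparison and 2.5% and 10% in the second, lay below those of all genes. Both comparisons with mock use the same 3 mock libraries, so they are not independent of each other.

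Most members nevertheless lay a little below mock. The log2 fold change was below 0 for 34 of 40 members in EPR and 33 of 40 in EPRSTOPE, while 50.7% and 52.6% of all genes were below 0. The median of the members was -0.25 in EPR, where that of all genes was -0.01, and -0.17 in EPRSTOPE, where it was -0.04. At an adjusted p under 0.01 and any fold change, 19 of 40 members (47.5%) were lower in EPR, against 18.0% of all genes, and 1 was higher, against 19.4%. In EPRSTOPE 14 of 40 (35%) were lower, against 16.8%, and 2 were higher, against 20.1%. Between EPR and EPRSTOPE, 3 were higher (9.19% of all genes) and 2 lower (10.3% of all genes), and the members' median was -0.01. Members are counted more deeply than most genes, with a median standard error of 0.07 in EPR against mock where all genes had 0.14, so smaller differences pass the test among them. All 14 proliferation genes were called lower in EPR and 6 of 14 in EPRSTOPE, and the part of proliferation and of the luminal markers in these small differences was not tested. With fragment length as a covariate the members' median was -0.29 in EPR and -0.25 in EPRSTOPE, and 16 and 13 of 40 members were lower, against 13.1% and 12.6% of all genes. Fragment length did not overlap between mock and either population, so this fit cannot fully separate it from condition. With counts scaled from TPM the medians were -0.26 and -0.18, but 4 and 6 of 40 members were lower, against 8.35% and 7.86% of all genes. Without EPR library 206, 12 of 40 were lower in EPR, against 15.5% of all genes. Without EPRSTOPE library 209, 5 were higher in EPR than in EPRSTOPE, where the share of all genes was not taken. In bulk RNA a smaller share of cells that express a gene and less RNA per cell cannot be told apart. Summed over the 40 members, 9979 to 10503 CPM were counted in mock, 8735 to 9077 in EPR and 8758 to 9415 in EPRSTOPE.

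**Figure D2:**
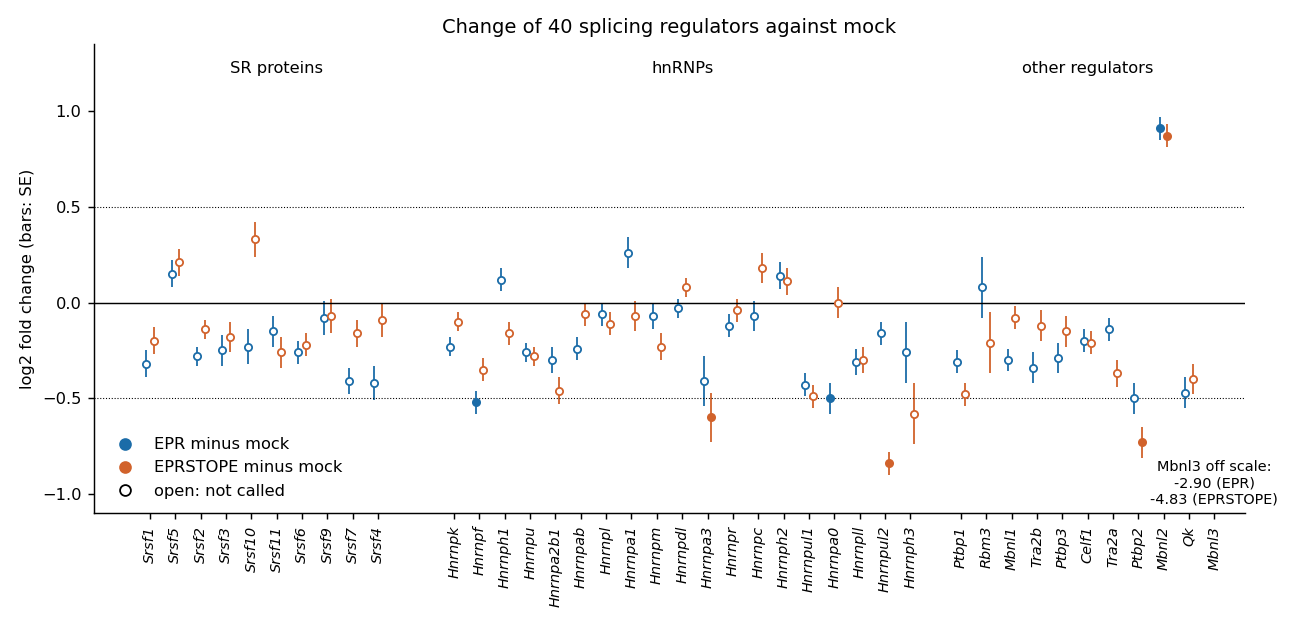
Log2 fold change of the 40 tested members in EPR minus mock and EPRSTOPE minus mock, with bars for the standard error, filled points for called members and dotted lines at 0.5 and -0.5. Most points lie between 0 and -0.5, *Mbnl2* stands near 0.9 in both comparisons, and *Mbnl3*, at -2.90 and -4.83, is off the scale.

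Among the SR proteins none of the 10 tested members was called against mock in either population. The median log2 fold change was -0.26 in EPR and -0.15 in EPRSTOPE. At an adjusted p under 0.01 and any fold change, *Srsf1*, *Srsf2*, *Srsf4*, *Srsf6* and *Srsf7*, all activators that bind exonic enhancers, were lower in EPR, by log2 fold changes of -0.26 (*Srsf6*) to -0.42 (*Srsf4*). *Srsf4* shares 41% of its 31-base words with *Gm12992*, and *Srsf2* 23.1% with other genes, *Mettl23* sharing most, so both are uncertain. In EPRSTOPE *Srsf6* alone was lower at that p, at -0.22. *Srsf5* had positive differences in both, 0.15 in EPR and 0.21 in EPRSTOPE, neither of which passed.

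*Srsf10* was the SR protein that differed between the overexpressing populations. It encodes SRp38, which represses splicing when it is dephosphorylated. It was at 189, 192 and 190 CPM in mock, 148, 163 and 178 CPM in EPR and 267, 213 and 237 CPM in EPRSTOPE. The 3 conditions did not overlap, with EPR lowest and EPRSTOPE highest. EPR was at 0.682 of EPRSTOPE, or -0.55 on the log2 scale (SE 0.09, adjusted p = 0.00046, edgeR's quasi-likelihood test). Against mock the log2 fold change was -0.23 in EPR (adjusted p = 0.047) and 0.33 in EPRSTOPE (adjusted p = 0.0074), neither past the fold limit. The difference between EPR and EPRSTOPE was -0.48 without EPR library 206 and -0.46 without EPRSTOPE library 209, which also ended the call, as did counting coding transcripts only (-0.43, adjusted p = 0.015). Of the 31-base words in *Srsf10* transcripts 12% also occur in other genes, most of them in *Gm5446* and *Gm9134*, so part of its counts rests on how kallisto divided reads.

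Of the 19 hnRNPs, 2 were called lower in EPR and 2 others in EPRSTOPE, against 12.9% and 12.4% of all genes, and none higher, against 15.2% and 15.6%. Whether the 2 populations differ in these genes is answered by their direct comparison, not by the lists. *Hnrnpf*, a G-run binding partner of hnRNP H, was at 707, 777 and 751 CPM in mock, 526, 544 and 493 CPM in EPR and 611, 587 and 555 CPM in EPRSTOPE. Every library of either overexpressing population lay below every mock library. EPR was at 0.699 of mock (log2 fold change -0.52, SE 0.06, adjusted p = 1.4e-05) and EPRSTOPE at 0.785 (log2 fold change -0.35, adjusted p = 0.00034), the latter within the fold limit. The direct difference was -0.17 (adjusted p = 0.049). Without mock library 204 the EPR value was -0.49 and without EPR library 208 it was -0.46, both inside the limit, and 66.2% of the 31-base words of *Hnrnpf* are shared with other genes, *Gm6430* sharing most, so that its counts are uncertain.

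*Hnrnpa0* encodes an hnRNP A/B protein known for binding AU-rich elements of mRNAs. Its libraries stood at 109, 110 and 92.2 CPM in mock, 78.4, 69.3 and 71.8 CPM in EPR and 97.9, 112 and 101 CPM in EPRSTOPE. EPR lay below all other libraries, while mock and EPRSTOPE overlapped. The log2 fold change was -0.50 in EPR against mock (SE 0.08, adjusted p = 0.00036) and -0.50 in EPR against EPRSTOPE (SE 0.08, adjusted p = 0.00078), with 0.00 in EPRSTOPE against mock (adjusted p = 0.98, 95% interval -0.16 to 0.17). Both called values stood at the fold limit of 0.5. Against mock the call ended without mock library 203 (-0.47) or 204 (-0.46), without EPR library 207 (-0.46) or 208 (-0.47) and without any 1 EPRSTOPE library (-0.49 to -0.50), and against EPRSTOPE it ended without EPR library 207 (-0.46) or 208 (-0.48) and without EPRSTOPE library 210 (-0.44). None of its 31-base words occurs in another gene.

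*Hnrnpa3*, a relative of hnRNP A2, was at 194, 199 and 186 CPM in mock, 129, 133 and 172 CPM in EPR and 145, 102 and 136 CPM in EPRSTOPE. All overexpressing libraries lay below mock, and EPR and EPRSTOPE overlapped. The log2 fold change was -0.60 in EPRSTOPE (SE 0.13, adjusted p = 0.0023) and -0.41 in EPR (SE 0.13, adjusted p = 0.02, not called). Without EPRSTOPE library 210 the first value was -0.46 and no longer past the fold limit. Its transcripts share 28.1% of their 31-base words with other genes, *Gm5641* sharing most, and its counts are uncertain to that extent.

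*Hnrnpul2*, a relative of hnRNP U with a SAP domain, was at 166, 159 and 154 CPM in mock, 148, 140 and 142 CPM in EPR and 93.9, 89.4 and 84.3 CPM in EPRSTOPE. The EPRSTOPE libraries stood apart below all others. EPRSTOPE was at 0.558 of mock (log2 fold change -0.84, SE 0.06, adjusted p = 2.8e-07), EPR at 0.897 (log2 fold change -0.16, adjusted p = 0.048, not called), and EPR was 1.61-fold higher than EPRSTOPE (log2 fold change 0.68, SE 0.06, adjusted p = 5.6e-06). The gene lies on chromosome 19, where the median of the 50 tested genes nearest to it was -0.63 in EPRSTOPE against mock and 0.57 in EPR against EPRSTOPE, and the medians of all 477 tested genes of the chromosome were -0.55 and 0.55. *Hnrnpul2* thus differed by little more than the genes around it.

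None of the remaining hnRNPs was called. *Hnrnph3*, a relative of hnRNP H and the least abundant of them, had -0.58 in EPRSTOPE against mock (SE 0.16, adjusted p = 0.01), which did not pass. At an adjusted p under 0.01 and any fold change, *Hnrnpa2b1*, *Hnrnpab*, *Hnrnpk*, *Hnrnpll*, *Hnrnpu* and *Hnrnpul1* were also lower in EPR, and *Hnrnpa2b1*, *Hnrnpf*, *Hnrnpll*, *Hnrnpu* and *Hnrnpul1* in EPRSTOPE. Of these, *Hnrnpul1* was at -0.43 in EPR and -0.49 in EPRSTOPE. *Hnrnpab* and *Hnrnpk* share 28.1% and 21.1% of their 31-base words with other genes, so their counts are uncertain to that extent. *Hnrnph1* differed between the overexpressing populations, with EPR higher by 0.27 (adjusted p = 0.0049). Of the members never called, those with the smallest standard errors were *Hnrnpu*, *Hnrnpk*, *Srsf2*, *Hnrnpdl* and *Celf1*. For *Hnrnpdl*, a relative of hnRNP D that regulates its own splicing, the 95% interval of the log2 fold change was -0.14 to 0.07 in EPR and -0.02 to 0.19 in EPRSTOPE, so a change beyond 0.5 lay outside both intervals.

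The MBNL proteins bind YGCY motifs and drive splicing patterns of differentiated tissues, with *Mbnl3* as the member best known from placenta and from myoblasts. *Mbnl3* and *Mbnl2* had the largest called changes among the members against mock, in opposite directions. *Mbnl2* was at 88.1, 87.3 and 83.7 CPM in mock, 157, 168 and 162 CPM in EPR and 150, 158 and 164 CPM in EPRSTOPE. No mock library overlapped the others, and both overexpressing populations overlapped each other. It rose 1.88-fold in EPR (log2 fold change 0.91, SE 0.06, adjusted p = 1.2e-07) and 1.83-fold in EPRSTOPE (log2 fold change 0.87, SE 0.06, adjusted p = 1.6e-07), with a direct difference of 0.04 (adjusted p = 0.62, 95% interval -0.07 to 0.16). *Mbnl2* lies on chromosome 14, where the 42 tested genes nearest to it had medians of 0.64 in EPR and 0.85 in EPRSTOPE against mock, and all 490 tested genes of the chromosome 0.49 and 0.59. Its rise was thus close to the median of its neighbours in EPRSTOPE and larger than it in EPR.

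*Mbnl3* fell in both populations. It was at 18.8, 18.6 and 20.5 CPM in mock, 2.09, 3.66 and 2.15 CPM in EPR and 0.508, 0.747 and 0.69 CPM in EPRSTOPE. The 3 conditions formed separate levels, and the EPRSTOPE values rest on 3, 7 and 6 estimated counts. EPR was at 0.134 of mock (log2 fold change -2.90, SE 0.22, adjusted p = 3.9e-07), EPRSTOPE at 0.0351 (log2 fold change -4.83, SE 0.27, adjusted p = 2.9e-08), and EPR was 3.82-fold higher than EPRSTOPE (log2 fold change 1.93, SE 0.32, adjusted p = 0.0007). The gene is on the X chromosome, where the 50 tested genes nearest to it had medians of -0.10 in EPR and -0.14 in EPRSTOPE. *Mbnl1*, the most abundant MBNL gene, was at 255, 251 and 256 CPM in mock, 202, 194 and 221 CPM in EPR and 241, 243 and 239 CPM in EPRSTOPE. Its log2 fold change was -0.30 in EPR (adjusted p = 0.00084, within the fold limit) and -0.08 in EPRSTOPE (adjusted p = 0.3).

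*Ptbp2*, the neuronal paralog whose level *Ptbp1* keeps low through exon skipping and NMD, was at 51.9, 57 and 61.3 CPM in mock, 40.8, 38.8 and 41 CPM in EPR and 35.1, 34.9 and 32.8 CPM in EPRSTOPE. The 3 conditions did not overlap, and EPRSTOPE was lowest. It fell in EPRSTOPE (log2 fold change -0.73, SE 0.08, adjusted p = 1.1e-05). In EPR it stood just inside the fold limit at -0.50 (SE 0.08, adjusted p = 0.00021), and the direct difference was 0.23 (adjusted p = 0.047). *Ptbp1* lay below mock in both, by log2 fold changes of -0.31 in EPR (adjusted p = 0.0014) and -0.48 in EPRSTOPE (adjusted p = 5e-05), neither beyond 0.5. It shares 27.5% of its 31-base words with other genes, *Gm4900* sharing most, and its counts are uncertain to that extent. *Ptbp3*, a broadly expressed paralog, was at -0.29 and -0.15 with adjusted p = 0.012 and 0.18. The PTB genes thus did not move in opposite directions here.

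*Qk*, an RNA-binding protein of the STAR family that promotes circular RNAs and mesenchymal splicing, was lower at -0.47 in EPR (adjusted p = 0.0003) and -0.40 in EPRSTOPE (adjusted p = 0.0012), within the fold limit. *Tra2b*, an activator that works with SR proteins, was lower in EPR alone at that p (-0.34, adjusted p = 0.0046; EPRSTOPE -0.12, adjusted p = 0.25), and *Tra2a*, its paralog, in EPRSTOPE alone (-0.37, adjusted p = 0.00057; EPR -0.14, adjusted p = 0.099). The direct differences, -0.22 for *Tra2b* (adjusted p = 0.068) and 0.23 for *Tra2a* (adjusted p = 0.02), did not pass. *Celf1*, which opposes MBNL proteins on many exons, was at -0.20 and -0.21, of which the second passed (adjusted p = 0.0075). *Rbm3*, a cold-inducible protein, spread from 210 to 317 CPM within mock and passed the test in no comparison (smallest adjusted p = 0.2).

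**Figure D3:**
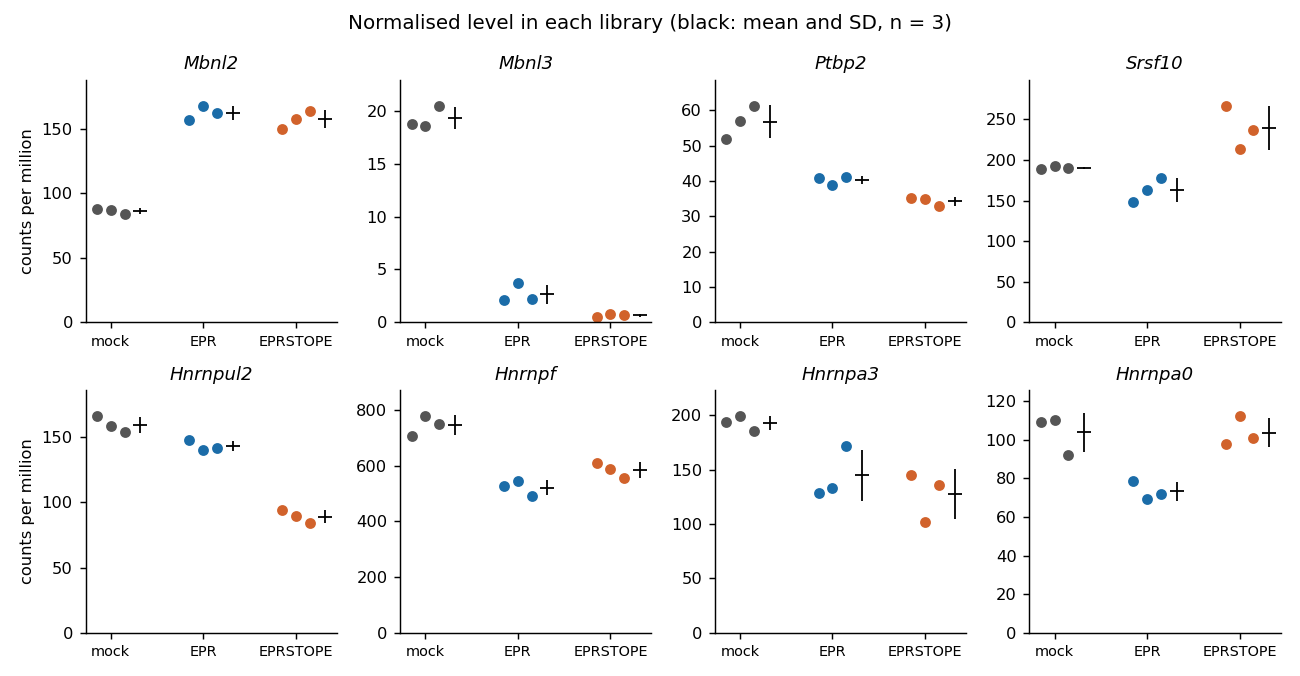
CPM in each library for the 8 members called in at least 1 comparison, with the mean and SD of the 3 libraries of a condition in black and every axis starting at 0. *Mbnl2* separates mock from both overexpressing populations, and *Hnrnpa0* separates EPR. *Mbnl3*, *Ptbp2*, *Srsf10*, *Hnrnpf* and *Hnrnpul2* show 3 levels without overlap, with EPRSTOPE far below the others for *Hnrnpul2*.

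In the median, the genes beside every called member moved less than the member itself. This includes *Mbnl2* and *Hnrnpul2*, whose neighbours moved furthest. The median of the 50 nearest tested genes was -0.28 at *Hnrnpf* and -0.02 at *Hnrnpa0* in EPR against mock, and -0.01 at *Hnrnpa3* and -0.23 at *Ptbp2* in EPRSTOPE against mock. For *Srsf10* it was -0.15 in EPR against EPRSTOPE, where the member was at -0.55. *Hnrnpc*, an hnRNP that covers long introns and lies on chromosome 14 like *Mbnl2*, had neighbours at 0.61 and 0.77 but was itself at -0.07 in EPR and 0.18 in EPRSTOPE, neither of which passed. Likewise *Hnrnpa1*, on chromosome 15, had its 29 nearest tested genes at 0.48 and 0.56 and was itself at 0.26 and -0.07. Its counts share 29.9% of their 31-base words with other genes and are uncertain.

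**Figure D4:**
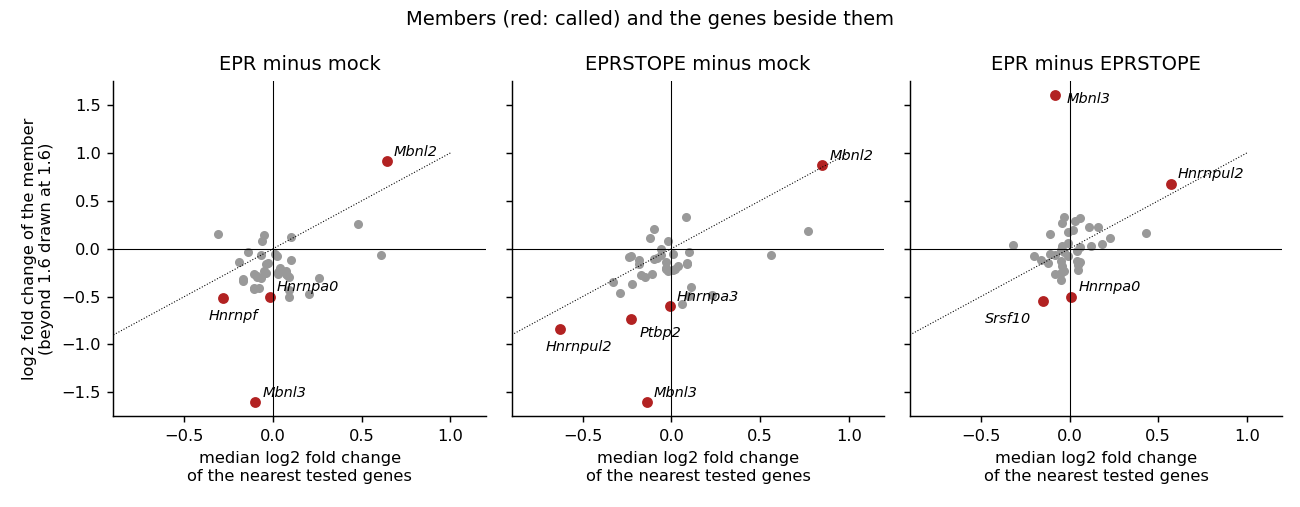
Log2 fold change of each of the 40 tested members against the median of the tested genes nearest to it on the chromosome, up to 25 on each side, for the 3 comparisons, with called members in red, values beyond 1.6 drawn at 1.6 and a dotted line where both are equal. *Mbnl2* and, in the comparisons with EPRSTOPE, *Hnrnpul2* lie near the dotted line, while *Mbnl3* lies far from it with neighbours between -0.14 and -0.08.

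Transcripts were tested in the same way over the 45412 that passed the filter, of which 296 belong to members. Their estimated counts vary more between libraries than gene sums, with a biological coefficient of variation of 0.709 where genes had 0.132. In EPR against mock 1 member transcript was called (4.07% of all transcripts), in EPRSTOPE against mock 4 (4.64%) and in EPR against EPRSTOPE 2 (0.854%). DESeq2 called 11, 13 and 6 of the same 296, and its share of all transcripts was not taken. In a test on simulated counts for EPR against mock, 200 of 41329 transcripts were changed by 1.5 on the log2 scale. The transcript fit recovered 0% of these, although 74% of them had passed 0.01 before adjustment. Of 200 changes of 4 it recovered 77%. The adjusted cut-off depends on how many transcripts change, and far more, 1850 of 45412, were called in the data. In EPRSTOPE against mock, smaller changes of Srsf10-207 (0.85) and Hnrnpul2-201 (-0.81) were called. The simulation thus gives no detection limit for the data, and a transcript without a call is not shown to be unchanged.

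The coding transcript Mbnl3-202 held most counts of *Mbnl3* in mock, with 92, 125 and 161 estimated counts. In EPR it had 14, 14 and 15, and in EPRSTOPE 0 in all 3 libraries. Set against the floor of 3 counts over the 3 EPRSTOPE libraries, mock was at least 107-fold higher and EPR at least 11.6-fold higher than EPRSTOPE, and EPR lay below mock, at -3.15 on the log2 scale (adjusted p = 0.0032, edgeR's quasi-likelihood test). No member transcript was called in EPR against mock without mock library 203 or 205 or any 1 EPR library. Over the coding transcripts together *Mbnl3* had 427 estimated counts in mock, 49 in EPR and 0 in EPRSTOPE, so the 16 counts left in EPRSTOPE all belonged to the retained-intron transcript Mbnl3-206, which had 47 in mock and 22 in EPR. By kallisto's division of reads, the coding mRNA of *Mbnl3* was thus not detected in EPRSTOPE at this depth.

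Srsf11-204, a 3106-base coding transcript of *Srsf11*, which encodes an SR protein that interacts with U2AF, had 23, 76 and 54 estimated counts in mock, 27, 45 and 36 in EPR and 0 in every EPRSTOPE library. Mock was at least 43.6-fold and EPR at least 28.7-fold above the same floor. The difference from mock was called (adjusted p = 0.003) and that from EPR was not (adjusted p = 0.012). The gene as a whole was at 106, 120 and 122 CPM in mock, 102, 109 and 102 CPM in EPR and 99.4, 103 and 88.3 CPM in EPRSTOPE, and was not called. Kallisto thus assigned no counts to the transcript in EPRSTOPE, while its gene was detected. It divided the gene's reads among 5 coding, 11 retained-intron and 3 NMD-labelled transcripts, and fragment length differed between conditions. A loss of the transcript and another division of reads therefore cannot be told apart, and the floor does not cover the latter.

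Srsf10-207, a 717-base transcript annotated without a reading frame, rose in EPRSTOPE, from 155, 173 and 277 estimated counts in mock to 234, 323 and 353 (log2 fold change 0.85, SE 0.15, adjusted p = 0.0091), with 186, 163 and 198 in EPR. The difference of EPR from EPRSTOPE was -1.03 and did not pass (adjusted p = 0.012). Hnrnpul2-201 is the only transcript of *Hnrnpul2* in the files, so its counts are those of the gene and its calls repeat the gene's. It was at -0.81 in EPRSTOPE against mock (adjusted p = 0.00024) and 0.71 in EPR against EPRSTOPE (adjusted p = 0.0019).

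The NMD-labelled transcripts held 9.91% to 13.23% of the members' estimated counts per library, where over all genes they held 2.59% to 3.80%. A large part came from 1 transcript, Hnrnpu-206, with a mean of 4500 estimated counts, where the next, Srsf6-201, had 934. The stop of Hnrnpu-206 lies in an exon that a coding transcript also holds. The members' share without *Hnrnpu* was not computed. Retained-intron transcripts held 9.60% to 13.37% of the members' counts and 3.97% to 6.83% of all. For *Srsf6* the NMD share of the gene's counts was 49.1%, 47.9% and 46.1% in mock, 49.1%, 51.2% and 43.3% in EPR and 43%, 52% and 53.5% in EPRSTOPE. For *Srsf3*, the smallest SR protein, it was 23.1%, 42% and 34.5% in mock, 38.2%, 41.6% and 25.6% in EPR and 38.8%, 45.4% and 28% in EPRSTOPE. The conditions overlapped for both genes, and the spread within a condition was wide. *Tra2b* had lower shares, 2.94%, 7.87% and 5.63% in mock, 8.31%, 4.16% and 12.4% in EPR and 7.56%, 10% and 15% in EPRSTOPE. *Ptbp1* and *Ptbp2*, whose stops share 27 of 30 bases, had medians over the 9 libraries of 10.7% and 26.4%.

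**Figure D5:**
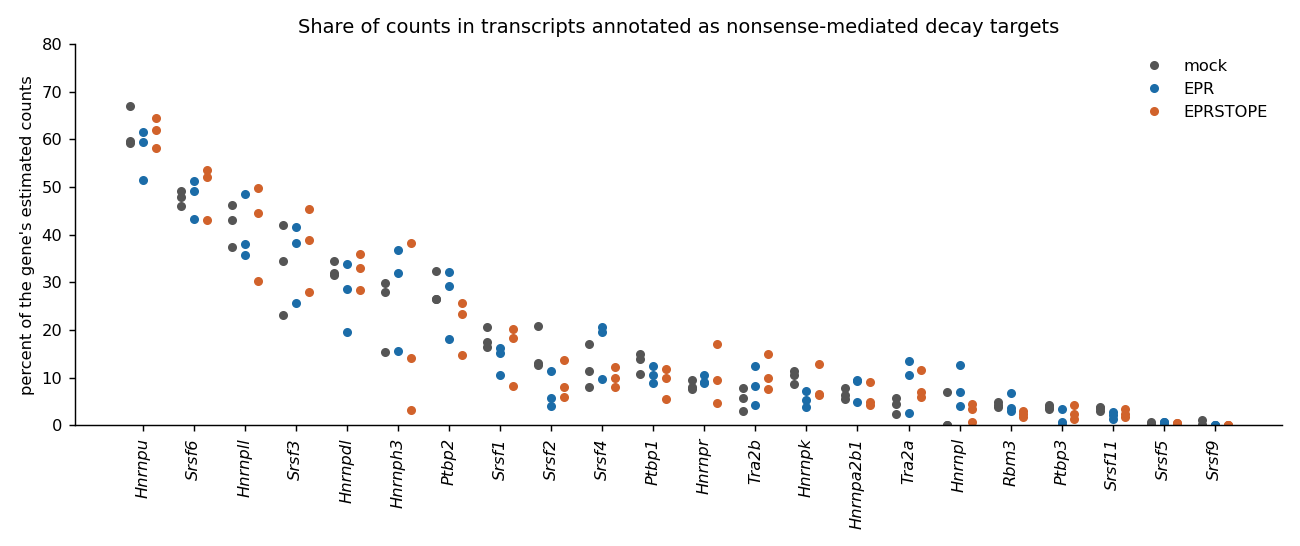
Share of a gene's estimated counts that fell in NMD-labelled transcripts, in percent, for the 22 members with such a transcript, with 3 points per condition. The share reaches 51.4% to 66.9% for *Hnrnpu* and stays under 1.1% for *Srsf5* and *Srsf9*, and the points of the 3 conditions overlap for most genes.

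The ratio of NMD-labelled to coding counts was compared with limma on the log2 scale for all genes with both classes, 21 of them members among 2204. No member was called in any comparison, where 0% of all genes were called in EPR against mock, 0% in EPRSTOPE against mock and 0% in EPR against EPRSTOPE. At an unadjusted p under 0.05 there were 3, 1 and 0 members, that is 14.3%, 4.76% and 0%, where all genes had 7.89%, 7.67% and 5.26%. The members' median difference was -0.11, -0.19 and -0.10, and that of all genes -0.38, -0.41 and 0.04. With fragment length as a covariate the medians of all genes against mock were -0.04 and -0.03, and those of the members 0.08 and -0.13. This covariate is confounded with the comparison against mock. The median standard error of a member's ratio was 0.49. In simulated counts for EPR against mock 77% of changes of 1.5 were recovered. That simulation used the genes' coefficient of variation of 0.132 and changed only genes with many counts in both classes. Transcript counts varied more, at 0.709, so the 77% is not the detection rate for the members' ratios.

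Among retained-intron ratios, with 26 members among 4915 genes, no member was called in EPR against mock (0.0203% of all genes), 1 in EPRSTOPE against mock (*Mbnl3*; 0.0814% of all genes) and none in EPR against EPRSTOPE (0% of all genes). At an unadjusted p under 0.05 there were 3, 5 and 1 members, that is 11.5%, 19.2% and 3.85%, where all genes had 10.6%, 16.6% and 9.68%. The *Mbnl3* ratio had a difference of 6.77 (SE 0.70, adjusted p = 0.008 in limma), which rests on coding sums of 0 in EPRSTOPE and so on the pseudocount of 0.5. It was no longer called in any fit that left out 1 library. *Srsf6* had higher ratios in both populations, by 0.95 in EPR (adjusted p = 0.38) and 1.01 in EPRSTOPE (adjusted p = 0.21), neither of which passed.

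The genes that act with these regulators were followed as lists, to be read against the 15.2% and 15.6% of all genes called higher and the 12.9% and 12.4% called lower in EPR and EPRSTOPE. Of 9 kinases of SR proteins, which control their location and activity, 2 were called higher in EPR (*Srpk2* and *Clk1*) and 1 in EPRSTOPE (*Srpk2*), and none lower. *Srpk2* rose by 0.87 in EPR (SE 0.10, adjusted p = 2.5e-05) and by 0.65 in EPRSTOPE (SE 0.11, adjusted p = 0.00031). Of 14 factors of the exon junction complex and NMD, none was called higher and 2 were called lower in each population, *Smg5*, which recruits decay enzymes, and *Magoh*, a core subunit. *Magoh* was at -0.66 in EPR and -0.78 in EPRSTOPE. The core spliceosome list of 35 genes had 9 called lower in EPR and 4 in EPRSTOPE and none higher, with medians of -0.34 and -0.26. Of 35 other splicing regulators 2 were called higher and 5 lower in EPR, and 1 and 4 in EPRSTOPE, with medians of -0.11 and -0.16. Between EPR and EPRSTOPE these lists had 0, 0, 1 and 3 genes higher and 0, 0, 1 and 1 lower. The members' median of -0.25 in EPR thus lay between that of the core spliceosome and that of all genes.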

How the data were processed

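The authors quantified paired reads of 9 stranded total RNA libraries with kallisto 0.43.1 (base calls from bcl2fastq 2.0) on the transcripts of Gencode M15, GRCm38.p5, and deposited estimated counts and TPM values per transcript. The TPM values were computed by the authors' tool from each library's own effective lengths. The labels name paired 75-base reads on a NextSeq, whereas the study's methods name another sequencer. Here, estimated counts were summed over transcripts per gene symbol and then rounded.

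Features reaching 1 CPM in 3 or more libraries entered edgeR 4.0.16 (quasi-likelihood, TMM, 1 factor of 3 levels over all 9 libraries) in R 4.3.3, and class ratios were tested with limma 3.58.1 on log2 values with a pseudocount of 0.5. P-values were adjusted by the Benjamini-Hochberg method over all features tested. The biotype of each transcript was taken from the deposited identifier. Positions, transcript sequences and 31-base words came from Gencode M21 on GRCm38, an annotation later than the one used for counting. Intervals of 95% are the value plus or minus 1.96 standard errors.

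Alternatives were DESeq2 1.42.0, limma-voom, other scaling, filters and thresholds, other pseudocounts, and leaving out each library. 3 more were chosen after the data had been seen: fragment length as a covariate, coding transcripts only, and leaving out the libraries of longest and shortest fragments (mock 203 and EPRSTOPE 209). Members' counts at any fold change were also taken under each alternative. Values in every library are given for members called in any comparison and for the 5 of highest mean TPM. Up to 5 uncalled members of smallest standard error and each member that failed the filter are named, and members beyond this rule were named after their values were seen. *Srpk2*, *Clk1*, *Smg5* and *Magoh* were named after their values were seen. The members, lists and tests were chosen with earlier results of these data known. On simulated counts for EPR against mock, the gene fit recovered 99% of 200 genes changed by 1.5 on the log2 scale among 14927, with 1 false call. Apart from *Mbnl3*, the called members changed by less than that. Such smaller changes of genes were not simulated, so the 99% is not their detection rate. Totals of 5972457 to 11876435 counts per library limit precision for low genes such as *Mbnl3*, and intervals and floors cover counting error or spread between libraries only. Python 3.11.15 with pandas 2.3.3, numpy 2.4.6 and matplotlib 3.10.9 was used otherwise.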

Additional observations from a re-analysis of the deposited data

Results flagged for a closer look

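The difference between EPR and EPRSTOPE, the populations overexpressing the RNA with and without the peptide, was tested directly for each member, and 4 members passed. *Hnrnpa0* had a log2 fold change of -0.50 in EPR against EPRSTOPE, with EPR below all libraries of the other conditions. *Srsf10* was at -0.55, with EPR below mock and EPRSTOPE above it. *Hnrnpul2* was at 0.68, where the 50 tested genes nearest to it had a median of 0.57. *Mbnl3* was at 1.93, with both populations far below mock. BC030870 itself was at 23.7 to 27 CPM in EPR and 3.8 to 4.74 in EPRSTOPE. The presence of the peptide, the level of the RNA and other differences between the transfected pools thus cannot be told apart in these 4 differences.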

How the results depend on the processing

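No paired analysis was made, because the libraries carry running numbers and no label says whether any were matched between conditions. The calls of *Mbnl2*, *Mbnl3* and *Ptbp2* kept their direction and passed the thresholds in all 20 alternatives (19 for *Mbnl3*), those of *Hnrnpul2* and *Hnrnpa3* in 19 of 20, that of *Hnrnpf* in 17, that of *Srsf10* in 15, and those of *Hnrnpa0* in 5 against mock and 12 against EPRSTOPE. No call reversed. *Hnrnpul2* was lost with counts scaled from TPM, at -0.53 against mock (adjusted p = 0.018).

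Counts of members called, in the order higher and lower in EPR, higher and lower in EPRSTOPE against mock, and higher and lower in EPR against EPRSTOPE, were 1, 3, 1, 4, 2 and 2. At an adjusted p under 0.05 with no minimum change they were 2, 25, 3, 19, 6 and 8. The shares of all genes were not taken at that threshold or for the alternatives below. These counts therefore show only how the members' calls move and cannot be read alone. With coding transcripts only the 3 lower counts were 5, 7 and 0. With at least 10 counts in every library 1 was lower in EPR, and 1 was higher and 1 lower between the populations. With only the compared conditions 1 was lower in EPR and 1 between the populations. With no filter 7 were lower in EPRSTOPE and 1 between the populations, and with counts scaled from TPM 1 was higher and 0 lower between them. Leaving out the libraries of longest and shortest fragments gave 1 lower between them. Leaving out 1 library gave 3 to 7 lower in EPRSTOPE and 1 to 2 lower between the populations.

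Transcript calls were 1, 4 and 2 (EPR, EPRSTOPE, direct), 11, 13 and 6 with DESeq2, 13, 15 and 4 at an adjusted p under 0.05, and 0, 2 and 0 without the libraries of longest and shortest fragments. With fragment length as a covariate EPR had 0. Leaving out 1 library gave 0 to 2, 2 to 4 and 0 to 2. The shares of all transcripts were not taken for these alternatives. The retained-intron call of *Mbnl3* in EPRSTOPE (1) became 0 with TPM, with at least 10 counts, with fragment length as a covariate, without the libraries of longest and shortest fragments, and in each fit that left out 1 library (0 to 0). The cause was not tested, other than that fewer samples or genes enter some fits. Depth limits low members such as *Mbnl3*, with 3 to 7 counts per EPRSTOPE library, and *Srsf12*, with 0 to 5 counts per library.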

Other observations

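Outside the members, the list of other splicing regulators held 4 genes called between the overexpressing populations, *Rbm4*, *Rbm4b* and *Rbm47*, higher in EPR, and *Khdrbs3*, lower in EPR. *Rbm4* and *Rbm4b*, paralogs that regulate exon inclusion in muscle and neurons, were called lower in EPRSTOPE against mock, by -0.96 (adjusted p = 7.5e-06 in edgeR's quasi-likelihood test) and -0.81 (adjusted p = 0.00011), and were at 0.10 and 0.12 in EPR, neither of which passed. *Rbm4* was at 52.2, 50.2 and 60.5 CPM in mock, 55.4, 55.6 and 64.2 CPM in EPR and 29.8, 25.5 and 28.9 CPM in EPRSTOPE. *Sf3b2*, a subunit of the U2 snRNP from the core spliceosome list, had log2 fold changes of -0.69 in EPRSTOPE and -0.14 in EPR against mock, the latter not called. *Rbm4*, *Rbm4b* and *Sf3b2* lie on chromosome 19, like *Hnrnpul2*, where the median of all 477 tested genes was -0.55 in EPRSTOPE and -0.02 in EPR against mock. *Khdrbs3*, an RNA-binding protein of the STAR family, was at 31.8, 28.7 and 29 CPM in mock, 9.78, 13.5 and 13.5 CPM in EPR and 23.2, 23.2 and 25.1 CPM in EPRSTOPE, with -1.28 in EPR against mock (adjusted p = 4.7e-06) and -0.96 in EPR against EPRSTOPE (adjusted p = 0.00015). *Rbm47*, an RNA-binding protein active in epithelia, rose in EPR from 41.9, 40.2 and 43.1 CPM in mock to 87, 81.2 and 85.5 CPM (log2 fold change 1.02, SE 0.08, adjusted p = 9.3e-07), and was at 44.4, 50.8 and 56.6 CPM in EPRSTOPE (log2 fold change 0.28, adjusted p = 0.016, not called). The direct difference in *Rbm47* was 0.74 (adjusted p = 3.8e-05). *Cirbp*, a cold-inducible relative of *Rbm3*, was called higher in both populations (0.79 and 1.10), while *Rbm3* was at 0.08 and -0.21 with no call. These genes were named after their values were seen.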
